A study of Mus musculus with 6 samples.

Results

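The genes described here are 7 genes of the class II antigen presentation pathway in LAPC-4 xenograft tumors, HLA-DRA, HLA-DRB1, HLA-DPA1, HLA-DPB1, HLA-DMA, CD74 and CIITA. They were chosen by Ensembl identifier, and each identifier was found once among the 60649 genes of the count table. RNA was sequenced in 6 tumors, of which numbers 16, 20 and 26 came from the HiGI group and numbers 19, 27 and 28 from the LoGI group. The question for these genes was whether their RNA in the tumor differed between mice eating a HiGI and a LoGI Western diet.

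All 6 tumors derive from LAPC-4, a line of human prostate cancer cells that respond to androgen through an unmutated receptor. Hosts were male CB.17 scid/scid mice, 6 to 8 weeks old when purchased, and every tumor was grown subcutaneously in the right flank. All mice ate the HiGI diet until tumor volumes averaged 200 mm3 and were then single-housed and assigned to a diet, so LoGI tumors had also begun their growth on the HiGI diet. Carbohydrate supplied 48% of the energy of both diets and was mainly sucrose in the HiGI diet and Hylon-VII, a high-amylose starch, in the LoGI diet. SCID mice have no mature T or B cells but keep macrophages, dendritic cells and natural killer cells, and these cells are of mouse origin.

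MHC class II molecules present peptides taken up from outside the cell to CD4+ T cells. An alpha and a beta chain pair in the endoplasmic reticulum with the invariant chain, CD74, which fills the peptide groove and directs the complex to endosomes, where HLA-DM helps exchange the remaining fragment of CD74 for a peptide. CIITA is the coactivator that switches on the class II genes and raises CD74 transcription, and interferon gamma is a classic inducer of CIITA outside professional antigen-presenting cells. CD74 also has a role as a cell surface receptor for the cytokine MIF.

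CD74 was the only member whose RNA passed the threshold between diets, and it was lower in the LoGI group. Its lowest count on the HiGI diet was 223 reads, against 14 reads in every LoGI tumor. CIITA was read at a low level that overlapped between the groups. Each of the 5 HLA genes had 9 reads or fewer in every tumor on either diet, and HLA-DPB1 had none at all.

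Library totals ranged from 18749813 to 21550812 reads on genes, with scaling factors (TMM) of 0.964 to 1.03. Tumors of the same diet differed by more than sampling noise, with a chi-square statistic per gene of 4.91 to 12.5, where repeated counts of the same library would give about 1. Levels are given in CPM (counts per 1000000 reads on genes), either scaled by TMM or, where so named, on the plain library total. At these depths 3 reads, taken as the limit that a count of 0 allows, correspond to 0.139 to 0.160 plain CPM. Intervals on reads are exact binomial (Clopper-Pearson) 95% intervals and cover counting error only. Prostate and leukocyte marker genes were not looked up, since the gene tables at hand were for mouse, so the tumors were not checked against such markers.

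**Figure D1:**
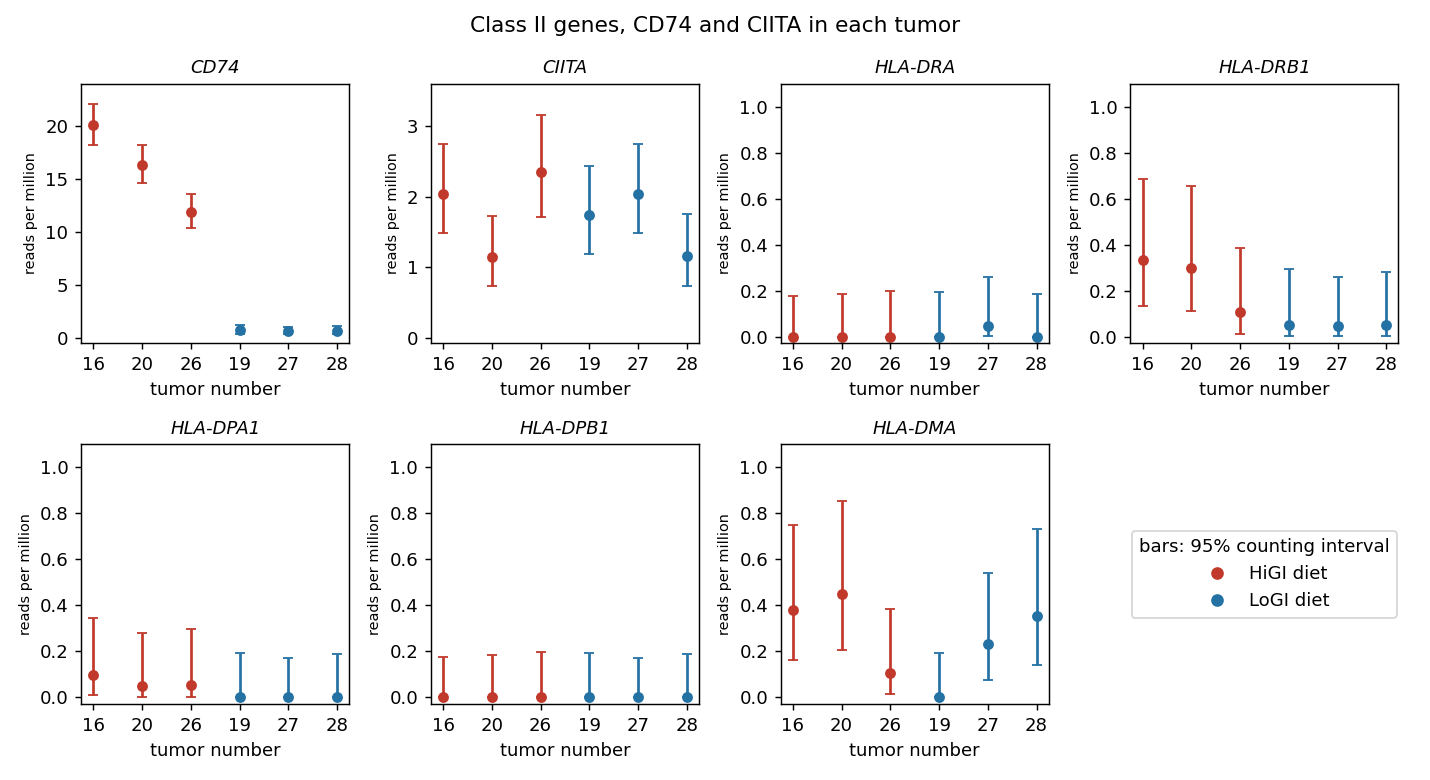
Plain CPM (y axis, linear, with its own scale for CD74 and CIITA and a common scale for the 5 HLA genes) in each of the 6 tumors (x axis). Points are tumors, bars are 95% Clopper-Pearson intervals, red is HiGI and blue is LoGI: for CD74 the HiGI tumors lie between 11.9 and 20.1 and the LoGI tumors between 0.650 and 0.736, whereas the diets overlap for CIITA and HLA-DMA, and no HLA gene exceeds 0.450 in any tumor.

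CD74 (ENSG00000019582.16), the invariant chain, gave 423 reads in HiGI tumor 16, 327 in tumor 20 and 223 in tumor 26. Each of the LoGI tumors gave 14 reads. The groups did not overlap, as was so in this direction for 10.9% of all genes tested, and the lowest HiGI tumor stood far above every LoGI tumor. The TMM-scaled level of CD74 was 15.9 ± 3.81 CPM (SD, n = 3) on the HiGI diet against 0.708 ± 0.0459 CPM (SD, n = 3) on the LoGI diet. Its log2 fold change, LoGI over HiGI, was -4.48 with a DESeq2 standard error of 0.30, and the quasi-likelihood F-test of edgeR gave an adjusted p (Benjamini-Hochberg) of 5.71e-09. This is a 22.3-fold lower level in LoGI tumors, and the 95% interval from the DESeq2 standard error ran from 15.0-fold to 33.4-fold lower. In bulk tumor RNA, fewer cells with CD74 RNA and less CD74 RNA per cell cannot be told apart. Reads matching both the human and the mouse genome were kept, and their share of the CD74 count was not measured.

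The HiGI tumors were not alike in CD74. Tumor 16 had 20.1 plain CPM (interval 18.2 to 22.1), tumor 20 had 16.4 (14.6 to 18.2) and tumor 26 had 11.9 (10.4 to 13.6). The intervals of tumors 16 and 20 only just met, and that of tumor 26 lay below both, so the spread within the HiGI group was wider than counting error. Plain CPM on the LoGI diet was 0.736 in tumor 19, 0.650 in tumor 27 and 0.709 in tumor 28, and these intervals, from 0.355 at the lowest bound to 1.23 at the highest, overlapped throughout. The LoGI tumors could therefore not be ordered by CD74 at this depth. The descending order of tumors 16, 20 and 26 was also held by 296 of the 829 genes that were lower in LoGI tumors (35.7%) and by 17.2% of all genes tested.

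The call for CD74 did not rest on any one tumor. Leaving out each tumor gave log2 fold changes between -4.64 and -4.30, the value nearest 0 being that without HiGI tumor 16. Over these fits and the other alternatives, the largest adjusted p was 5.76e-07, from edgeR without LoGI tumor 19.

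CIITA (ENSG00000179583.20), the class II transactivator, gave 43 reads in HiGI tumor 16, 23 in tumor 20 and 44 in tumor 26. On the LoGI diet it gave 33 reads in tumor 19, 44 in tumor 27 and 23 in tumor 28. The groups overlapped almost completely, since the lowest count, 23 reads, and the highest, 44 reads, were each found on both diets. The TMM-scaled level of CIITA was 1.82 ± 0.612 CPM (SD, n = 3) on the HiGI diet against 1.67 ± 0.429 CPM (SD, n = 3) on the LoGI diet. Its log2 fold change was -0.12 with a DESeq2 standard error of 0.38, and the adjusted p in edgeR was 0.932. The 95% interval of the difference (DESeq2) allows LoGI levels from 0.552 to 1.54 times those of HiGI tumors, so a change within that range could have gone unseen. Without HiGI tumor 26 the log2 fold change was 0.10 and without LoGI tumor 28 it was 0.06, both on the other side of 0, with adjusted p of 0.960 and 0.966 in edgeR.

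Because CD74 and CIITA are counted in the same library, the ratio of their reads needs no scaling between tumors. There were 9.84 CD74 reads per CIITA read in HiGI tumor 16 (interval 7.18 to 13.8), 14.2 in tumor 20 (9.31 to 22.7) and 5.07 in tumor 26 (3.65 to 7.17). On the LoGI diet there were 0.424 in tumor 19 (0.210 to 0.815), 0.318 in tumor 27 (0.161 to 0.592) and 0.609 in tumor 28 (0.290 to 1.23). CD74 thus had more reads than CIITA in every HiGI tumor and fewer in every LoGI tumor, a statement about reads that were not divided by gene length. On the log2 scale the mean ratio was 3.16 ± 0.75 (SD, n = 3) for the HiGI diet and -1.20 ± 0.47 (SD, n = 3) for the LoGI diet. The difference of 4.36 corresponds to a 20.5-fold change of the ratio (exact two-sided permutation p = 0.1, the smallest p that 3 against 3 tumors allow). The ratio was chosen after the values were seen and carries the same CD74 difference, so this p gives no further support.

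**Figure D2:**
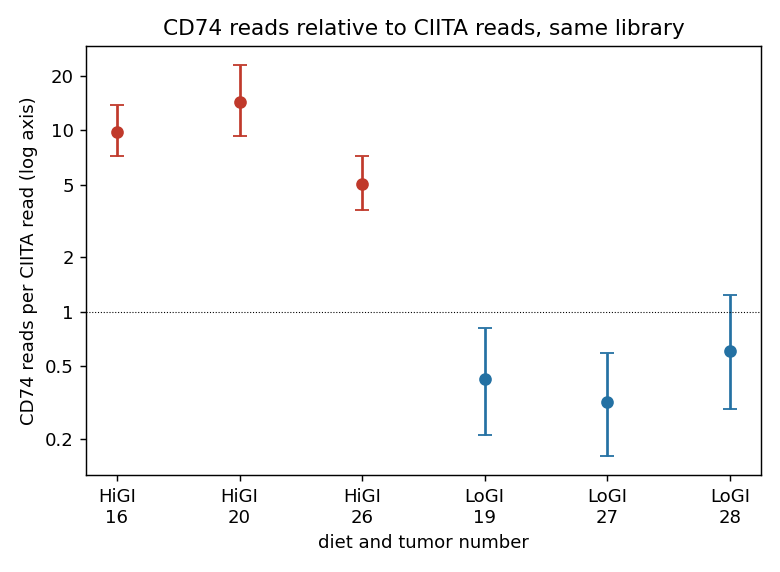
Number of CD74 reads per CIITA read (y axis, log scale) in each tumor (x axis, diet and tumor number), with 95% Clopper-Pearson intervals as bars and equal reads as the dotted line. HiGI tumors lie between 5.07 and 14.2 and LoGI tumors between 0.318 and 0.609, with no overlap.

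The class II chains themselves were at or near the limit of detection. HLA-DRA (ENSG00000204287.14), the alpha chain shared by all DR molecules, had no read in any HiGI tumor and 1 read on the LoGI diet, in tumor 27. HLA-DPB1 (ENSG00000223865.11), the DP beta chain, had 0 reads in all 6 tumors, which allows up to 0.139 to 0.160 plain CPM in a tumor. Neither gene was detected on the HiGI diet, where CD74 was high.

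HLA-DPA1 (ENSG00000231389.7), the DP alpha chain, had 2 reads in HiGI tumor 16, 1 in tumor 20, 1 in tumor 26 and none in any LoGI tumor. The groups did not overlap, but both lay under the 3-read limit and no fold is given. Of all genes tested, a set without HLA-DPA1, 10.9% were separated in this direction. The share among genes with as few reads as HLA-DPA1 was not measured. HLA-DRA, HLA-DPA1 and HLA-DPB1 had too few reads to enter the test, which required a sum of 10 reads over the 6 tumors.

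HLA-DRB1 (ENSG00000196126.11), a DR beta chain, had 7 reads in HiGI tumor 16, 6 in tumor 20, 2 in tumor 26 and 1 in each LoGI tumor. The groups did not overlap, although HiGI tumor 26 was only 1 read above the LoGI tumors, and 10.9% of all genes tested were separated in this direction. Pooled over tumors there were 15 reads on the HiGI diet and 3 on the LoGI diet, a ratio per library read of 5.04. Its counting interval of 1.43 to 27.2 leaves out the spread between tumors. The log2 fold change of -2.15 (DESeq2 standard error 1.31) did not pass the threshold, with an unadjusted p of 0.0245 and an adjusted p of 0.252 in edgeR. With a prior count of 2 the log2 fold change was -1.20. The 95% interval (DESeq2) reached from 0.0352 to 1.23 times the HiGI level, so it included no difference between diets. Reads of HLA-DRB1 can be shared with other DR beta genes and pseudogenes that are nearly identical to it, so its count is uncertain.

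HLA-DMA (ENSG00000204257.15), the alpha chain of the peptide exchange factor HLA-DM, had 8 reads in HiGI tumor 16, 9 in tumor 20 and 2 in tumor 26. On the LoGI diet it had 0 reads in tumor 19, 5 in tumor 27 and 7 in tumor 28, so the groups overlapped. The log2 fold change was -0.61, with a DESeq2 standard error of 0.996 and an adjusted p of 0.848 in edgeR. The 95% interval (DESeq2) reached from 0.169 to 2.53 times the HiGI level, so these reads can show neither a moderate rise nor a moderate fall. Leaving out LoGI tumor 19, the tumor with 0 reads, brought the log2 fold change to -0.05, and leaving out LoGI tumor 28 brought it to -1.31, neither past the threshold.

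Summed over the 5 HLA genes, HiGI tumor 16 had 17 reads, tumor 20 had 16 and tumor 26 had 5, while LoGI tumor 19 had 1, tumor 27 had 7 and tumor 28 had 8. HiGI tumor 26 fell below LoGI tumors 27 and 28, so the sum did not separate the diets. HiGI tumor 26 was also the HiGI tumor with the fewest reads on CD74, HLA-DRB1 and HLA-DMA, while its CIITA count of 44 was the highest of the HiGI group. CD74 supplied 82.0% to 89.3% of the reads on the 7 genes in HiGI tumors and 21.5% to 31.1% in LoGI tumors. Summed over the 7 genes, TMM-scaled levels ran from 14.5 to 22.2 CPM on the HiGI diet and from 2.36 to 3.04 CPM on the LoGI diet, and without CD74 and CIITA the remaining sum did not separate the groups.

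Of the 7 members, 4 were tested, and 1 (CD74) passed the threshold, an adjusted p below 0.05 together with a log2 fold change whose size reached 1. Among all 24545 genes tested, 829 were lower in LoGI tumors by this rule, or 3.38%, and 18 were higher, or 0.0733%. The 18 became 4 without LoGI tumor 19, 7 without HiGI tumor 20, 39 with a filter of 1 read and 90 with no minimum fold change. No member was higher by this rule in edgeR, and the number of members higher at an unadjusted p under 0.05 was 0 in edgeR, against 4.33% of all genes tested, and 0 in DESeq2, against 3.36%. At an unadjusted p under 0.05, 2 members were lower in edgeR, CD74 and HLA-DRB1, as were 8.98% of all genes tested, and 1 member, CD74, was lower in DESeq2, as were 7.64% of all genes.

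Within the 829 lower genes, CD74 held place 41 by smallest p and place 256 by size of decrease. Some larger decreases belong to genes with no LoGI reads, such as ENSG00000165118.15 (log2 fold change -8.81), whose fold rests on edgeR's prior count. How many of the larger decreases are of this kind was not counted. Of the 309 lower genes read 10 times or more in every tumor, CD74 held place 6 by size of decrease, and the median of these 309 genes was a log2 fold change of -1.62. This place depends on the cut, which drops genes with fewer LoGI reads and was added after values were seen. CD74 cleared it with 14 reads in each LoGI tumor.

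**Figure D3:**
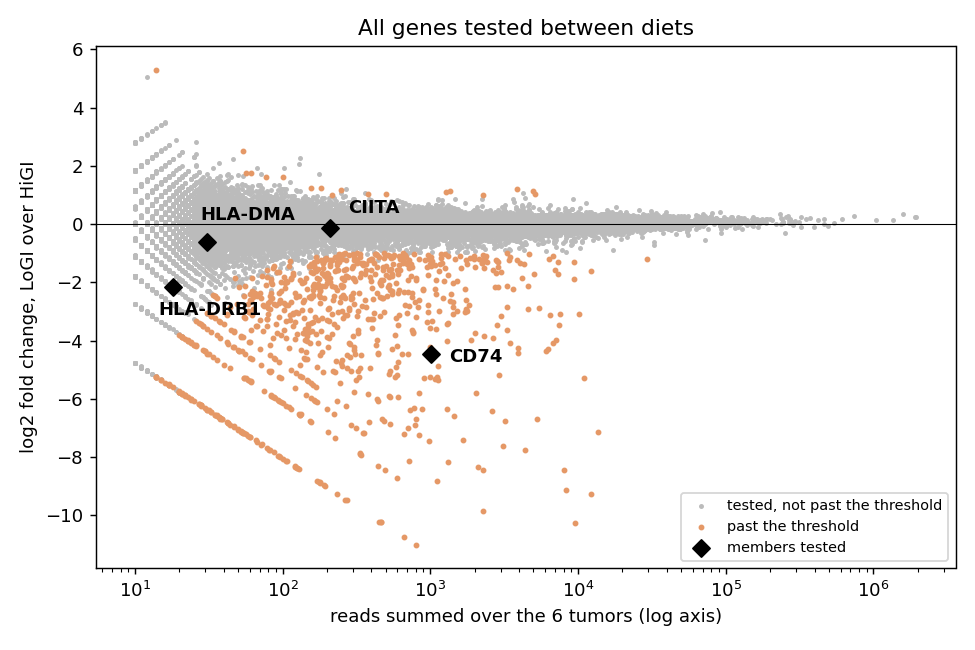
Log2 fold change, LoGI over HiGI (y axis), against reads summed over the 6 tumors (x axis, log scale) for the 24545 genes tested; grey points did not pass the threshold, orange points did, and black diamonds are the 4 tested members. CD74, with 1015 reads, lies at -4.48 among the orange points, whereas CIITA with 210 reads, HLA-DMA with 31 and HLA-DRB1 with 18 lie among the grey ones.

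The genes whose pattern over the 6 tumors was most like that of CD74, the member with the most reads, were sought among 15991 genes with at least 100 reads, by Pearson's r of log2 CPM. These correlations rest on 6 points that share their libraries and fall into 2 clusters by diet, and a gene with a large difference between diets scores high. In all, 127 genes had an r of at least 0.99, and 895 genes had an r over 0.9. The 2 genes most like CD74 are given by identifier. ENSG00000163347.6 (r = 0.9998) had 2454 reads in HiGI tumor 16, 2104 in tumor 20 and 1391 in tumor 26, and between 96 and 102 reads in the LoGI tumors. ENSG00000165118.15 (r = 0.9996) had 74 reads in HiGI tumor 16, 57 in tumor 20 and 40 in tumor 26, and none in any LoGI tumor.

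**Figure D4:**
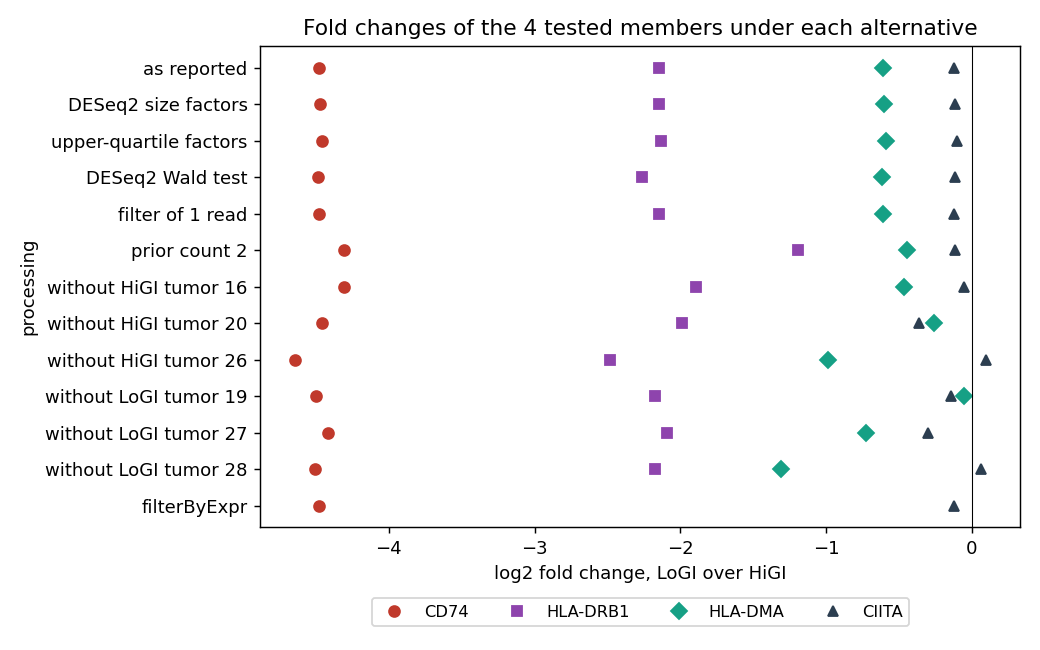
Log2 fold change, LoGI over HiGI (x axis), of CD74, HLA-DRB1, HLA-DMA and CIITA under each way of processing the counts (y axis), with 1 point per gene and setting. CD74 stays between -4.64 and -4.30, whereas CIITA crosses 0 without HiGI tumor 26 or LoGI tumor 28, and HLA-DRB1 and HLA-DMA have no point with filterByExpr, which removes them.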

How the data were processed

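Tumor RNA was sequenced as stranded mRNA libraries with 75 bp single-end reads. Per the paper's methods, the authors used BBMap against both species to discard mouse-only reads, STAR on human GRCh38.p13 and RSEM, and the deposited counts per gene are whole numbers without normalization. Versions of these tools, and how RSEM estimates became whole, are not given in the sources used here. Reads matching both genomes were kept, and their share of any gene's count was not measured. GEO lists the species as mouse, although the counts are on human identifiers.

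Diets came from the sample records, and 0 columns were left unmatched. Counts were TMM-normalized and tested with edgeR 4.0.16 (quasi-likelihood F-test, Benjamini-Hochberg adjustment over all genes tested) in R 4.3.3, on genes whose reads summed to 10 or more over the 6 tumors. Standard errors came from DESeq2 1.42.0. The edgeR test was checked on counts simulated with the same dispersion for every gene. Changes were planted only in genes averaging 10 reads or more per tumor. The check therefore did not cover changes in genes with as few reads as HLA-DRB1 and HLA-DMA, or genes that vary more between tumors. Library totals of 18749813 to 21550812 reads set the precision. Each tumor came from its own mouse.

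The members, lists and tests were chosen with earlier results of these data known. The CD74 to CIITA ratio, the sum over the 5 HLA genes and the places of CD74 among lower genes were added after values were seen. The rule for named genes was all 7 members, called genes of the lists and the genes most like the most-read member. Lists of other class II genes, transcription partners, the interferon gamma route, endosomal processing, CD74 ligands and co-receptors, class II turnover, costimulation, class I genes and cell type markers were not looked up, because the gene tables at hand are for mouse and matched 0 of the identifiers. Gene lengths, coordinates and sequences of the members were not used here for the same reason. The CD74 to CIITA ratio and the CD74 share of member reads therefore compare reads that were not divided by gene length. Alternatives changed the scaling (DESeq2 size factors, upper-quartile factors, library totals), the test (DESeq2 Wald), the filter (1 read, filterByExpr), the minimum fold change (none) and the prior count (2), or left out a tumor.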

Additional observations from a re-analysis of the deposited data

How the results depend on the processing

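CD74 was past the threshold and lower in LoGI tumors under all 12 alternatives run for it, with log2 fold changes from -4.64 to -4.30, and it was the 1 member called lower in each of them, while 0 members were called higher. HLA-DRB1 (-2.48 to -1.20) and HLA-DMA (-1.31 to -0.05) kept a negative sign and passed no threshold in the 11 alternatives that tested them. Both were removed by filterByExpr. Leaving out single tumors moved the log2 fold change of CIITA between -0.36 and 0.10, and it passed the threshold in none of the 12 alternatives. The number of genes lower in LoGI tumors (829) stayed within 1.5 times, from 678 with filterByExpr to 1071 with no minimum fold change, and from 685 to 846 with a tumor left out. The number higher (18) became 39 with a filter of 1 read and 90 with no minimum fold change, and ran from 4 (without LoGI tumor 19) to 26 with a tumor left out, being 7 without HiGI tumor 20. The cause was not tested, except that dropping the minimum fold change admits smaller changes. Summed levels of the 7 members moved by less than the spread between replicates with library totals only. The lists of other genes were not run under any setting.

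With at most 9 reads on any HLA gene in a tumor, depth limits what can be said of them, and 3 tumors per diet limit any exact test to p = 0.1 or above. No paired analysis was possible because the replicate numbers only name tumors in each diet and pair none of them.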
